A study of Homo sapiens with 8 samples.

Results

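The anti-apoptotic branch of the BCL2 family was examined in HCT116 cells treated with MANIO. The members are the 5 genes BCL2, BCL2L1, BCL2L2, MCL1 and BCL2A1, chosen by gene symbol and function, among 58302 genes in the deposited table. Each symbol matched a single row. HCT116 is an established human colon cancer line, and all cells here carried wild-type p53 (p53+/+). Of 8 cultures, 4 received 1 µM MANIO, a compound known here by its code name alone, and 4 the solvent DMSO. RNA was collected after 24 hours in both groups. All samples come from this single line, so the results describe HCT116 and no other colon cells.

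Mitochondrial apoptosis is decided on the outer membrane of the mitochondrion. There, BAX and BAK form pores through which cytochrome c escapes and starts the caspase cascade. The proteins of the 5 members hold these effectors in check: a groove on their surface binds the BH3 helix of BAX, BAK or the BH3-only proteins, the stress sensors of the family. BH3-only proteins such as PUMA and NOXA, products of p53 target genes, occupy the groove and release the effectors. Tumour cells differ in which guardian they depend on, and drugs that fill the groove of BCL-2, BCL-xL or MCL-1 make use of this.

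Total counts lay between 27945196 and 32509020 per library. Levels are given as CPM, counts scaled to a common library total with edgeR's TMM factors. CDKN1A, the p21 gene and a p53 target, rose by 2.43 on the log2 scale, and MDM2, which encodes the ubiquitin ligase that restrains p53, by 1.85. The mitochondrial genome's own genes held 7.48% of DMSO replicate 1, against 4.82% to 5.21% in the other DMSO libraries and 6.70% to 7.62% in MANIO. Without DMSO replicate 1 the log2 fold changes of the members were 0.22 for BCL2L1, 0.21 for MCL1, 0.07 for BCL2L2 and -0.28 for BCL2. Of 7 colon epithelial markers, 5 passed the filter and 4 of these were called higher in MANIO (median log2 fold change 0.32), a larger shift than in BCL2L1 or MCL1. Over all genes tested, 27.8% were called higher and 26.8% lower, the shares to set beside this list and the stromal list below. KRT8 had 0.38, KRT18 0.37 and CDH1 0.32. CDX2 went from 15.7 ± 1.58 to 18.3 ± 1.97 CPM (0.22), a call lost with DESeq2, with upper-quartile scaling and without DMSO replicate 1, 2 or 4 or MANIO replicate 1, 2 or 3 (adjusted p 0.0548 to 0.170). EPCAM was abundant and not called, VIL1 had 33 counts in all 8 libraries together and CDX1 had 2. The summed level of the 7 markers was 2605 to 2903 CPM in DMSO and 3220 to 3679 CPM in MANIO, and its part in the members' results was not tested. The summed level of 7 hematopoietic genes was 0.107 to 0.255 CPM in DMSO and 0.0673 to 0.317 CPM in MANIO, with MS4A1 at 0 counts. The 7 stromal and endothelial genes summed to 22.4 to 27.6 CPM in DMSO and 39.9 to 47.9 CPM in MANIO. Nearly all of this was COL1A1 (22.9 ± 2.21 and 42.2 ± 3.44 CPM, SD, n = 4 each), and COL1A2 and DCN had 4 and 1 counts in all. The list did not move as 1: of its 3 genes that passed the filter, 2 were called higher in MANIO and 1 lower.

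The guardian genes split. BCL2L1 and MCL1, the 2 most abundant members, rose modestly (1.17- and 1.15-fold), BCL2 fell to 0.825-fold from a low level, BCL2L2 did not pass the test, and BCL2A1 was hardly detected. Of the 4 members kept by the filter on low counts, 2 were called higher, 1 lower and 1 neither. A call is an adjusted p under 0.05 in edgeR's quasi-likelihood test. Across all 15712 genes tested, 54.6% were called, 27.8% higher and 26.8% lower, so a called member is no rare event in these cells. The median log2 fold change of the 4 tested members was 0.13, beside 0.0043 over all genes tested. In 3 of the 4 the groups did not overlap, as was so for 48.3% of all genes tested. In bulk RNA a lower level can mean fewer expressing cells or less RNA per cell, and these cannot be told apart.

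BCL2L1 encodes BCL-xL, the guardian best known in epithelial tumours. By alternative splicing the same gene gives the short, pro-apoptotic BCL-xS. The gene (ENSG00000171552) lies on the minus strand of chromosome 20 at 31664452 to 31723989 (GRCh38). To show where it starts, the 224 bases just ahead of its first annotated exon are printed from RefSeq's promoter set (GRCh38.p14, chr20:31723990-31724213, minus strand, written 5′ to 3′), with each match to TATAAA in capitals.
BCL2L1 upstream: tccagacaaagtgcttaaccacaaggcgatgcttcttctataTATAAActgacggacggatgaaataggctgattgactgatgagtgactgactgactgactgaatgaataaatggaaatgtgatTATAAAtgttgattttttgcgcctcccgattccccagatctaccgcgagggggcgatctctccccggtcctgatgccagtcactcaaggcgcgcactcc
TATAAA occurs at positions 43 and 126 from the 5′ end, 182 and 99 bases ahead of the exon. Searched on both strands, TATAAA was present in 8.48% of 35116 promoter windows of the same length. GGGCGG (39.4% of windows), TGACGTCA (1.31%), the p53 half-site consensus (4.97%) and the NF-kB consensus (8.96%) had no match here. These are letter matches and no evidence of binding.

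BCL2L1 stood at 248, 260.0, 256 and 239 CPM in DMSO replicates 1 to 4 and at 312, 288, 300.5 and 275 CPM in MANIO replicates 1 to 4. All 4 treated libraries lay above all 4 controls, with MANIO replicate 4 the closest to them. The mean went from 251 ± 9.45 to 294 ± 15.7 CPM (SD, n = 4 each). The log2 fold change was 0.23 (SE 0.0538), a 1.17-fold rise with a 95% confidence interval of 1.08 to 1.27, and edgeR's adjusted p was 0.00217. Counts ran from 6663 to 9838 per library, so counting error (1.18% of the level in DMSO) was smaller than the replicate spread of 3.77%. ABALON, a non-coding antisense gene, covers 43.0% of the exonic bases of BCL2L1 on the other strand. It held 0 to 5 counts in DMSO and 3 to 14 in MANIO. The labels name a TruSeq RNA v2 kit, a protocol known not to mark strand. How reads from the shared bases were counted is not given in the sources used, and the counts do not separate BCL-xL from BCL-xS.

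MCL1 encodes a guardian with a very short-lived protein, whose amount follows ongoing transcription and translation closely. The gene (ENSG00000143384) is on chromosome 1 at 150574551 to 150579738 and spans 5.19 kb. It read 283, 265, 269.9 and 275 CPM in the DMSO libraries and 306, 321, 299.9 and 325 CPM in the MANIO libraries, in replicate order. The groups were again separate. The mean rose from 273 ± 7.41 to 313 ± 12.0 CPM (SD, n = 4 each), 1.15-fold with a 95% interval of 1.07 to 1.23. The log2 fold change was 0.20 (SE 0.0497; edgeR adjusted p = 0.00354). Like BCL2L1, MCL1 gives a long protective and a short pro-apoptotic form, and the counts add both.

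BCL2, the founding member, holds BAX in check and binds BIM strongly. Its gene (ENSG00000171791) reaches from 63123346 to 63320128 on chromosome 18 and spans 197 kb. The DMSO libraries held 6.47, 6.29, 6.36 and 6.82 CPM, the MANIO libraries 5.20, 5.43, 5.32 and 5.45 CPM. Every treated library was below every control. The mean went from 6.49 ± 0.235 to 5.35 ± 0.116 CPM (SD, n = 4 each). BCL2 fell by 17.5%, to 0.825-fold (95% interval 0.729 to 0.932), with a log2 fold change of -0.28 (SE 0.0831; edgeR adjusted p = 0.0104). With 162 to 200 counts per library, counting alone gives a spread of 7.32% in DMSO and 7.72% in MANIO. The observed spreads were narrower, 3.62% and 2.18%, so the gap between the groups looks cleaner than this depth assures.

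BCL2L2, the gene of BCL-w, lies on chromosome 14 at 23298790 to 23311759 (ENSG00000129473). It stood at 50.6, 47.1, 51.0 and 49.6 CPM in DMSO and at 50.7, 51.1, 51.9 and 54.0 CPM in MANIO. The groups overlapped. Means were 49.6 ± 1.77 and 51.9 ± 1.48 CPM (SD, n = 4 each), and the log2 fold change of 0.07 (SE 0.0534) had an edgeR adjusted p of 0.311. The 95% interval, 0.968- to 1.13-fold, leaves room for a rise close to that of MCL1. BCL2L2-PABPN1, a read-through gene on the same strand, shares 19.4% of the exonic bases of BCL2L2 and held 6 to 18 counts per library. PPP1R3E, on the opposite strand, shares 4.92%. Its log2 fold change was -0.25 (edgeR adjusted p = 0.132), and without DMSO replicate 1 it was -0.35 (edgeR adjusted p = 0.0292) and without MANIO replicate 3 it was -0.36 (edgeR adjusted p = 0.0418).

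BCL2A1 encodes BFL-1, a guardian known mainly from white blood cells and from NF-kB signalling. It had 2, 0, 0 and 2 counts in the DMSO libraries and 3, 2, 1 and 0 in the MANIO libraries. No library exceeded 3 counts, the number that a count of 0 still allows, which corresponds to 0.0915 to 0.112 CPM. The gene (chromosome 15, 79960889 to 79971446, ENSG00000140379) did not pass the filter, and no difference was detectable at this depth. The 250-base windows ahead of the RefSeq starts are not purely upstream sequence. In those of BCL2A1 and BCL2, 0 bases lie ahead of the first annotated exon, in that of the second BCL2L1 start 20 bases, and in that of the first 224 bases. With that limit, GC content was 38.8% in the window of BCL2A1 (10.8% of the table's windows are poorer in GC). It was 70% for BCL2 (79.2% are poorer) and 50% and 60.4% for the 2 starts of BCL2L1 (31.9% and 55.0% are poorer). MCL1 shares 2 exonic bases with ADAMTSL4-AS1, which held 1 to 10 counts per library.

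**Figure D1:**
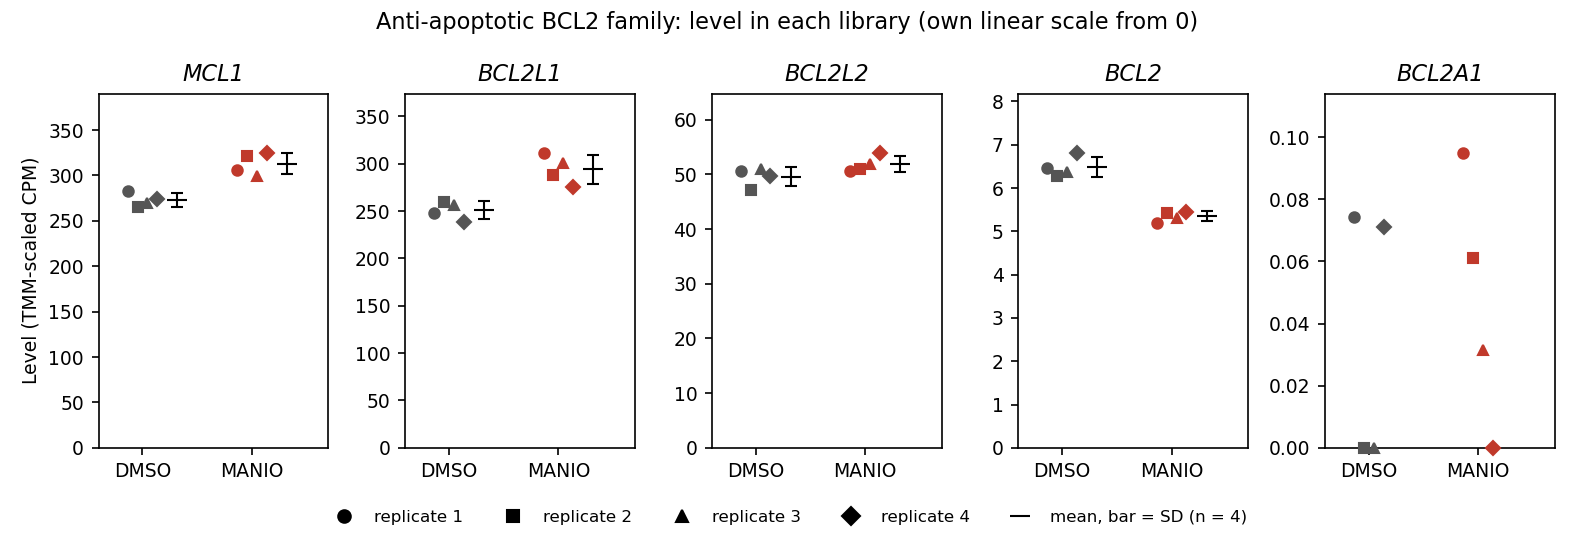
Level of each member in every library, in TMM-scaled CPM on a linear axis from 0, with a scale of its own in each panel. Symbols are replicates, bars the mean and SD of 4 libraries (not drawn for BCL2A1, which had at most 3 counts). MANIO lies above DMSO for MCL1 and BCL2L1 and below it for BCL2, and overlaps it for BCL2L2.

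These changes were modest by the standard of this treatment. The median change among the 8574 called genes was 1.34-fold. Only 16.2% of the called genes had a change no larger than that of BCL2L1, 9.66% no larger than that of MCL1 and 26.2% no larger than that of BCL2, counting both directions. A small change can be called in abundant genes such as BCL2L1 and MCL1 and missed in genes of few counts. These shares therefore also depend on depth.

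Whether members responded differently was tested on the log2 ratio of their counts within each library, for all 6 pairs of the 4 detected members. An exact two-sided permutation test was used. With 70 ways to split the libraries its p cannot go below 0.0286, and p-values were adjusted over the 6 pairs. BCL2 dropped against each of the others. Its log2 ratio to BCL2L1 went from -5.27 ± 0.106 to -5.77 ± 0.108 (SD, n = 4 each), a shift of -0.51 (exact permutation, adjusted p = 0.0429). Against MCL1 the shift was -0.47 and against BCL2L2 -0.34, both with an adjusted exact permutation p of 0.0429 and no overlap of the groups. BCL2L2 also shifted by -0.13 against MCL1 (adjusted exact permutation p = 0.0429; MCL1 gained in comparison). BCL2L1 against BCL2L2 moved by 0.16 (adjusted exact permutation p = 0.0686). BCL2L1 against MCL1 moved by 0.03 (adjusted exact permutation p = 0.657), from -0.12 ± 0.0851 to -0.09 ± 0.128 with overlapping groups. In each of the 4 pairs that passed, the adjusted exact permutation p became 0.0571 to 0.0857 when any 1 DMSO library was left out, while the direction stayed. In the pairs with BCL2 it was at most 0.0571.

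**Figure D2:**
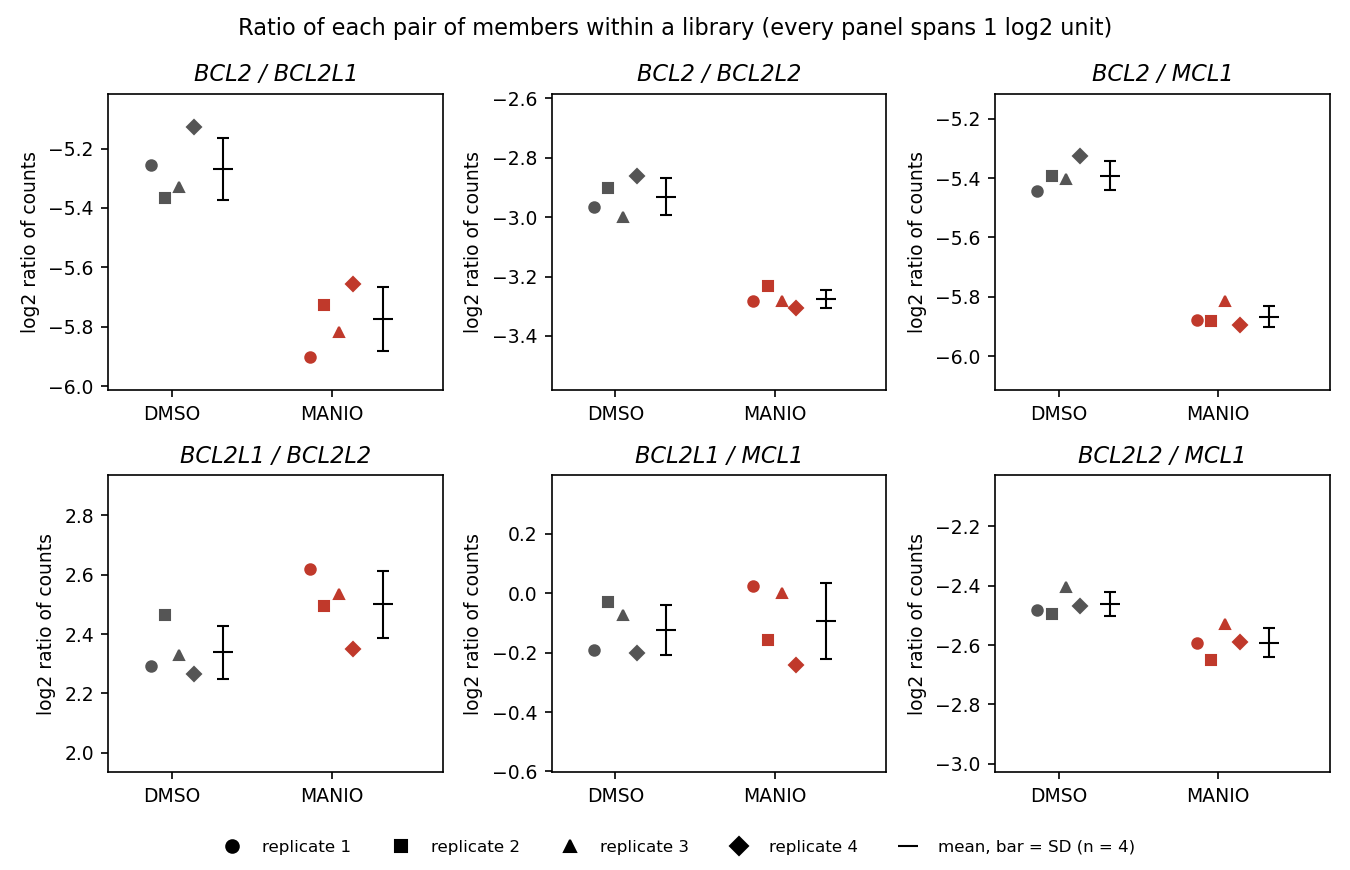
Log2 ratio of the counts of 2 members within each library, 1 panel per pair, every vertical axis spanning 1 log2 unit. Symbols are replicates, bars the mean and SD of 4 libraries. The 3 panels with BCL2 show MANIO below DMSO without overlap, while BCL2L1 over MCL1 overlaps.

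To set members beside each other, counts were divided by merged exonic length and scaled to a common sum per library (TPM). In DMSO, BCL2L1 was the highest at 258 ± 17.1 TPM (SD, n = 4), followed by MCL1 at 212 ± 7.29, BCL2L2 at 40.2 ± 1.95 and BCL2 at 1.88 ± 0.127 TPM. BCL2A1 reached at most 0.230 TPM there. No neighbours in this order overlapped over the DMSO libraries: BCL2L1 ranged from 235 to 274 TPM and MCL1 from 203 to 221 TPM. In MANIO the order was the same, with BCL2L1 at 301 ± 14.4, MCL1 at 243 ± 11.9, BCL2L2 at 42.1 ± 1.37 and BCL2 at 1.54 ± 0.0462 TPM. BCL2L1 and MCL1 together thus made up most guardian transcript. BCL2L1 accounted for 50.3 ± 1.48% of the 5-gene sum in DMSO and 51.2 ± 2.14% in MANIO, MCL1 for 41.5 ± 1.24% and 41.4 ± 1.93%, BCL2L2 for 7.86 ± 0.280% and 7.16 ± 0.295%, and BCL2 for 0.366 ± 0.0183% and 0.263 ± 0.00915%. The sum itself was 478 to 527 TPM in DMSO and 575 to 599 TPM in MANIO. These levels lean on the length used. The same counts were also divided by the exonic length that no other gene shares. This put BCL2L1 at 413 ± 26.3 TPM in DMSO and 484 ± 22.2 in MANIO, with MCL1 at 194 ± 6.21 and 223 ± 11.2 TPM. Reads were not counted anew over those bases. If reads from shared bases are among the counts, the shorter length overstates BCL2L1.

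Several opponents of the guardians had larger changes. All 8 BH3-only genes were kept by the filter. Of these 4 rose, 1 fell and 3 failed the test, and their median log2 fold change was 0.31. Over all genes tested, 27.8% were called higher and 26.8% lower, the shares to set beside this list and those that follow. PMAIP1 encodes NOXA, which binds MCL-1 and BFL-1 and prompts MCL-1 degradation. It went from 65.8 ± 8.83 to 159 ± 25.8 CPM (SD, n = 4 each), a log2 fold change of 1.28. BIK, an activator of apoptosis located at the endoplasmic reticulum, went from 11.98 ± 0.8997 to 22.8 ± 2.24 CPM (0.93), and BBC3, the PUMA gene, from 29.8 ± 2.28 to 56.8 ± 5.79 CPM (0.93). BCL2L11 encodes BIM, which binds all guardians, and went from 17.5 ± 0.932 to 24.95 ± 0.886 CPM (0.51). In these 4 genes the groups did not overlap, and the edgeR adjusted p was at most 7.2e-06.

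BAD, a sensitizer that binds BCL-2, BCL-xL and BCL-w, fell from 29.01 ± 1.60 to 25.0 ± 3.08 CPM (log2 fold change -0.22, edgeR adjusted p = 0.0372) with overlapping groups. This call was lost without DMSO replicate 2, 3 or 4 or MANIO replicate 4 (edgeR adjusted p 0.0666 to 0.0908). The direct activator gene BID had a log2 fold change of -0.0022, and HRK, known from neurons, had 0.10. BMF, a sensor of lost cell attachment, had -0.30 (edgeR adjusted p = 0.0708). Without DMSO replicate 4 it was -0.37 (edgeR adjusted p = 0.0406) and without MANIO replicate 4 it was -0.36 (edgeR adjusted p = 0.0479).

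Of the 3 pore-forming genes, 2 rose and 1 did not pass. BAX went from 64.6 ± 3.70 to 121 ± 8.84 CPM (log2 fold change 0.91, edgeR adjusted p = 2.3e-08). BAK1, whose protein is held by MCL-1 and BCL-xL, went from 21.9 ± 1.41 to 30.2 ± 1.95 CPM (0.46, edgeR adjusted p = 4.1e-05). BOK, a relative that the guardians control less, had 0.10 (edgeR adjusted p = 0.272). Among the remaining 5 homologues, 3 passed the filter and 2 of them rose. BCL2L13, a mitochondrial protein gene also tied to mitophagy, rose from 71.3 ± 1.44 to 83.0 ± 2.30 CPM (0.22, edgeR adjusted p = 0.00149). BCL2L15 rose from 0.403 ± 0.0800 to 2.38 ± 0.261 CPM (2.56, edgeR adjusted p = 4.5e-08), the steepest change in the family on a low level. BCL2L12 had -0.20 (edgeR adjusted p = 0.0685) and was lower at -0.28 without DMSO replicate 1 (edgeR adjusted p = 0.00318) and at -0.21 with every gene kept (edgeR adjusted p = 0.0099). BCL2L10, a further anti-apoptotic relative, had 3 counts in all 8 libraries, and BCL2L14 had 14 in DMSO and 31 in MANIO.

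**Figure D3:**
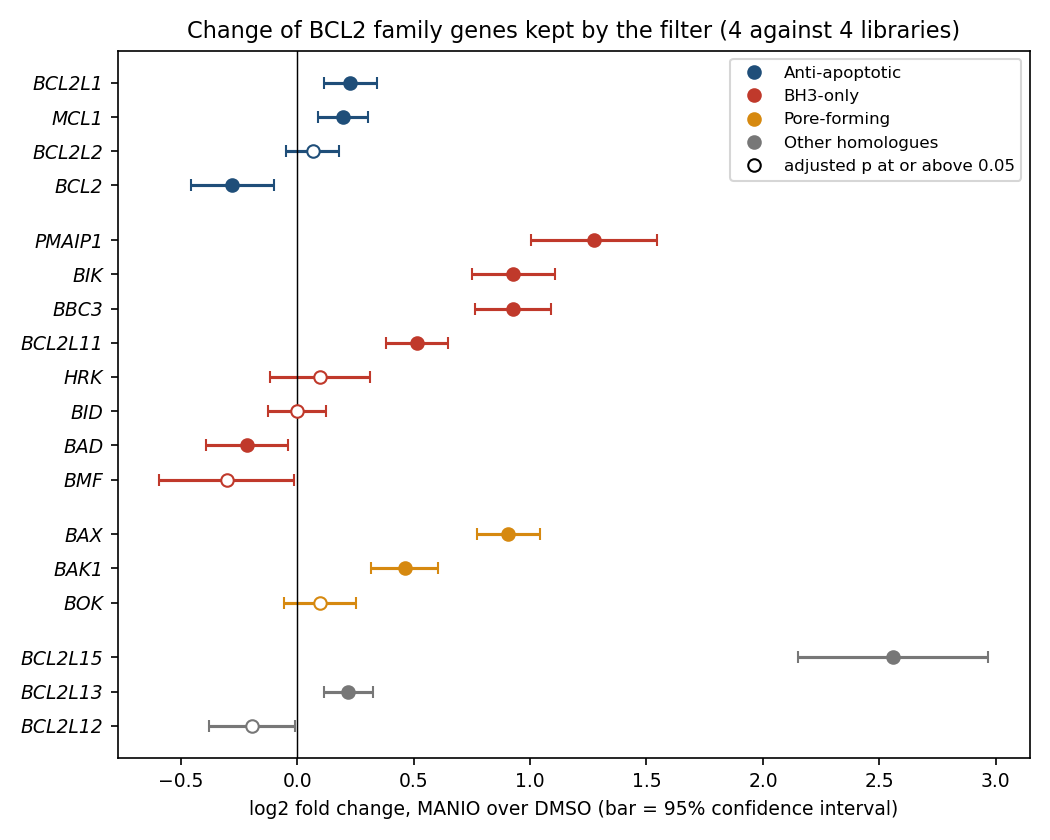
Log2 fold change of 18 BCL2 family genes kept by the filter, MANIO over DMSO, with 95% confidence intervals, coloured by role. Filled points had an adjusted p under 0.05. BCL2L1 and MCL1 sit at 0.23 and 0.20, BCL2 at -0.28, and the upper BH3-only and pore-forming genes between 0.46 and 1.28.

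Textbook pairs of opponent and guardian were then compared within libraries. No test was made, since the rise of the opponents was known beforehand, and a ratio of counts is read here for its change and not as a ratio of molecules. BAX over BCL2 was 9.18, 10.8, 10.4 and 9.46 in the DMSO libraries and 24.4, 22.8, 23.5 and 19.8 in the MANIO libraries. The groups were far apart, with means of 9.97 ± 0.771 and 22.7 ± 2.02 (SD, n = 4 each), 2.27 times higher in MANIO. PMAIP1 over MCL1 was 0.227, 0.204, 0.276 and 0.256 in DMSO and 0.418, 0.477, 0.557 and 0.582 in MANIO, 2.11 times higher on average. BBC3 over BCL2L1 was 0.111, 0.109, 0.122 and 0.135 in DMSO and 0.187, 0.185, 0.213 and 0.186 in MANIO, 1.62 times higher. The rises of MCL1 and BCL2L1 were thus smaller than those of the opponents paired with them.

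**Figure D4:**
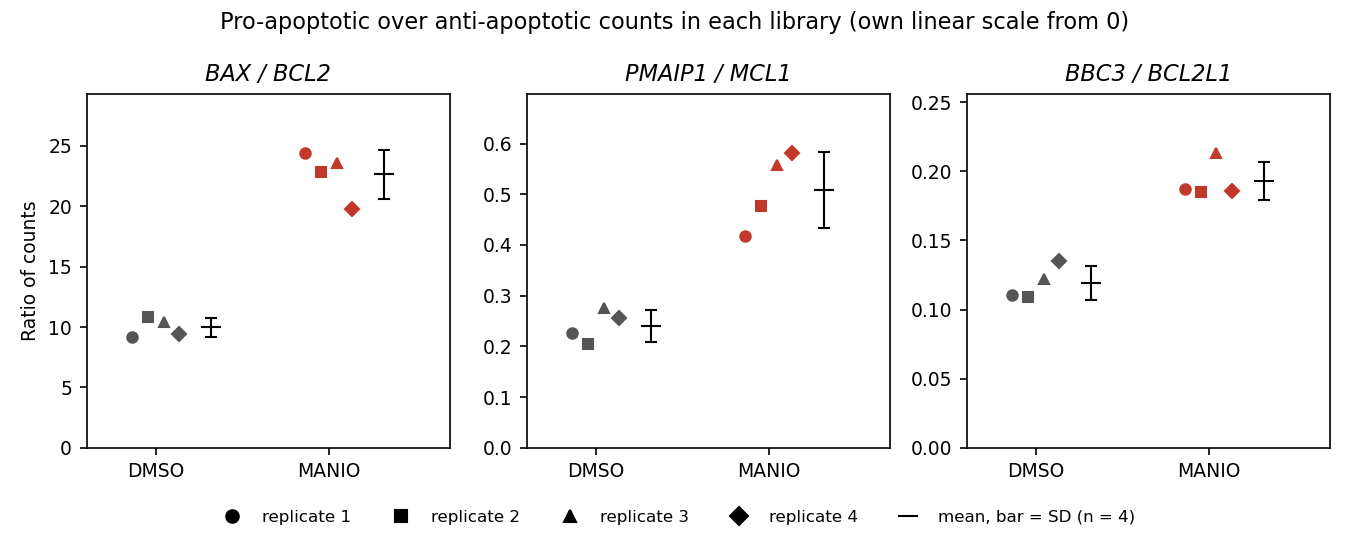
Ratio of counts of a pro-apoptotic to an anti-apoptotic gene in each library, on linear axes from 0. Symbols are replicates, bars the mean and SD of 4 libraries. All MANIO libraries lie above all DMSO libraries in the 3 panels.

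Genes acting on the guardians or after them were mixed. Of 6 genes for turnover of the MCL-1 protein, 1 rose and 2 fell, beside 27.8% and 26.8% of all genes tested. FBXW7, the substrate receptor of a ubiquitin ligase that marks MCL-1, went from 30.6 ± 0.690 to 51.8 ± 1.15 CPM (log2 fold change 0.76, edgeR adjusted p = 2.1e-08). USP13, a deubiquitinase that stabilizes MCL-1, fell from 62.3 ± 3.39 to 50.3 ± 3.23 CPM (-0.31, edgeR adjusted p = 6.7e-04), and BTRC, another ligase receptor, fell as well (-0.26; named after its value was seen). HUWE1, USP9X and GSK3B did not pass. The median of these 6 genes was -0.03.

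Of 9 genes that act once the pore has formed, 3 rose and 2 fell, with a median of 0.01. The part called was close to the 54.6% called over all genes tested. APAF1, the scaffold of the apoptosome, went from 44.8 ± 3.01 to 66.0 ± 2.40 CPM (log2 fold change 0.56, edgeR adjusted p = 1.9e-06). CASP9, the caspase it activates, went from 14.6 ± 0.366 to 10.9 ± 0.296 CPM (-0.43, edgeR adjusted p = 6.8e-05). DIABLO (0.44) and the channel gene VDAC1 (-0.18) were also called and were picked for naming once their values were known. In DIABLO 30.4% of the exonic bases overlap another gene.

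Of 10 transcription factor genes known to act on the members, 9 passed the filter, 5 rose and 2 fell, with a median of 0.20. RELB, an NF-kB subunit of the non-canonical pathway, rose by 0.76 on the log2 scale, from 11.0 ± 0.407 to 18.7 ± 1.02 CPM, and STAT3, which acts on MCL1 and BCL2L1 in many cells, from 101 ± 1.71 to 149.9 ± 7.24 CPM (0.57). Their edgeR adjusted p was 3.3e-07 and 2.6e-07. NFKB2 (0.52) and STAT5B (0.20) also rose and NFKB1 (-0.20) and CREB1 (-0.22) fell. These 4 were picked for naming once their values were seen. The call of STAT5B was lost with DESeq2 (adjusted p = 0.0837), with every gene kept (edgeR adjusted p = 0.112) and without DMSO replicate 1, 3 or 4 or MANIO replicate 2 or 3 (edgeR adjusted p 0.0533 to 0.0918). That of CREB1 was lost without DMSO replicate 3 or 4 or MANIO replicate 1 or 3 (edgeR adjusted p 0.0628 to 0.0824). BCL2A1, an NF-kB target elsewhere, stayed at the detection limit in both groups.

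BCL2 differs from the other members in its span. Of 1392 tested genes spanning 131 to 295 kb, within 1.5 times of BCL2, 42.9% were called lower and 19.2% higher, with a median log2 fold change of -0.12 and a middle 50% from -0.40 to 0.11. The value of BCL2, -0.28, lay inside that range. Of 3149 genes with a span like that of BCL2L1, 28.4% were higher and 26.6% lower (median 5.0e-05), and of 1649 like MCL1, 31.0% were higher and 21.7% lower (median 0.05). Both members lay above these medians and within the middle 50% of such genes. The part of gene span in the fall of BCL2 was not tested.

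**Figure D5:**
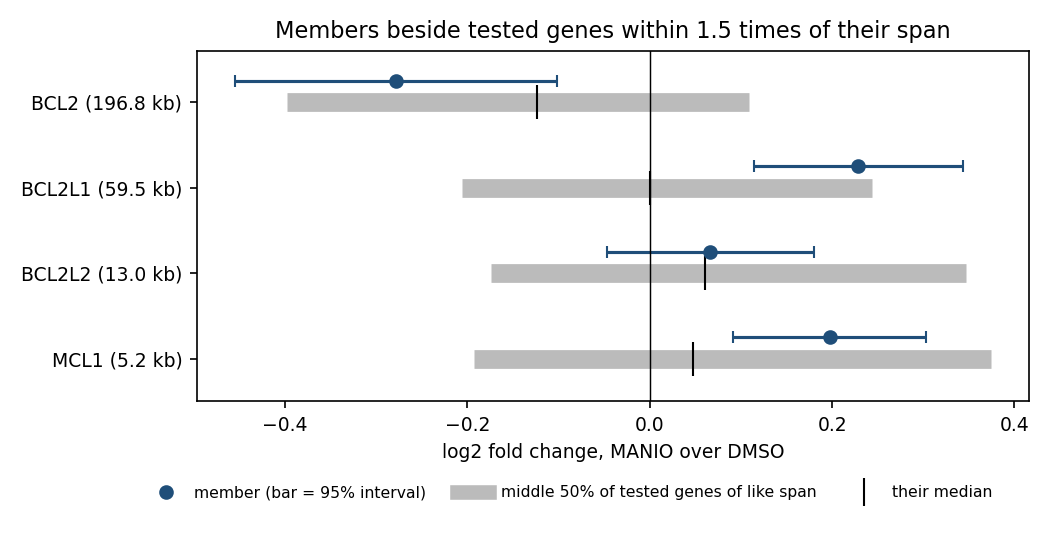
Log2 fold change of each tested member (point, 95% interval) beside the middle 50% (grey) and median (black) of tested genes within 1.5 times of its span. BCL2 at -0.28 lies in the lower part of a range centred at -0.12, and BCL2L1 and MCL1 in the upper part of ranges centred near 0.

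By their log2 CPM over the 8 libraries, the genes most like BCL2 were FBXL17 (r = 0.995), an F-box gene that spans 523 kb, and the cilium gene TCTN2 (r = 0.992). For BCL2L1, YIPF2 was among them (r = 0.988), and for MCL1 they were the zinc finger gene ZNF436 (r = 0.988) and NT5E, the gene of the ecto-enzyme CD73 (r = 0.987). For BCL2L2 they were the kinesin gene KIF3A (r = 0.978) and the tetraspanin gene TSPAN12 (r = 0.965). The points share the contrast between the groups, and with 8 libraries many genes look alike: 1414 genes had an r over 0.9 with BCL2, 827 with BCL2L1, 902 with MCL1 and 77 with BCL2L2.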

How the data were processed

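Counts of reads per Ensembl gene were used as the authors deposited them, per the file headers and the whole-number values. STAR 2.5.3a, HTSeq, FastQC 1.3, DESeq2 and GRCh38 appear in the submitters' processing notes, with no role or order. The sources used here do not give the annotation, the strand setting or the handling of reads shared by overlapping genes. Per the labels' protocols, libraries came from total RNA by a TruSeq RNA v2 kit.

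Genes passing edgeR's filterByExpr (15712) were fitted with the quasi-likelihood test of edgeR 4.0.16 in R 4.3.3, with group alone, robust dispersions and TMM scaling. P-values were adjusted by Benjamini-Hochberg over all of them. Standard errors come from the F statistic. Ratios of members used counts plus 0.5. Lengths, positions and overlaps come from GENCODE 29 (58039 of 58302 identifiers matched), promoters from RefSeq (3 of 5 members matched). The procedure was tested on simulated data. No library was a copy of another: within a group, chi-square over its degrees of freedom was 3.60 to 24.4. DMSO replicate 1 stood furthest from its group, with 20.7 to 24.4 against the other controls. The remaining DMSO pairs had 3.60 to 10.3 and the MANIO pairs 4.35 to 14.8. The labels call the samples biological replicates.

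Named were all members and BH3-only, pore-forming and homologous genes, genes whose exons overlap a member, 2 genes of smallest p per other list, and 2 genes per member by likeness. Called genes of short counts were added after their values were seen. Results for 3 of the genes so named are not reported here. The members and lists were chosen with earlier results of these data known. Alternatives were DESeq2 1.42.0, other scalings, no filter, a replicate block and leaving out each library. The confidence intervals come from the quasi-likelihood fit and include the spread between replicates. The floor given for BCL2A1 covers counting error alone.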

Additional observations from a re-analysis of the deposited data

Results flagged for a closer look

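Dixon's test at the 95% level picked out 11 values among 136 groups of 4 libraries. Chance alone would pick about 1 in 20. MANIO replicate 4 was the low library in 5 of them. It held 107.9 CPM of BAX, against 124 to 127 in the other MANIO libraries, 20.4 CPM of BAD against 25.8 to 26.8, and 29.9 CPM of BCL2L12 against 35.9 to 36.0. Its CDKN1A level was 1257 CPM against 1445 to 1462, and its PDGFRB level 0.437 CPM against 0.919 to 1.01. Without this library the log2 fold changes of the members were 0.26 for BCL2L1, 0.18 for MCL1, 0.05 for BCL2L2 and -0.29 for BCL2.

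DMSO replicate 1 was low for DIABLO, with 3.83 CPM against 4.68 to 4.83 in the other controls, and for NFKB2, with 98.1 CPM against 111 to 113. Its mitochondrial share of counts, 7.48%, was high against 4.82% to 5.21%. In MANIO replicate 3 the ratio of BBC3 to BCL2L1 counts was 0.213, against 0.185 to 0.187 in the others. BCL2L10 was seen in DMSO replicate 3 (0.0636 CPM) and MANIO replicate 1 (0.0317 CPM) and had 0 counts elsewhere, which is 3 reads in all. A single nonzero value among zeros is always picked out, so the flags of BCL2L10, part of the 11, say nothing about an outlier.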

How the results depend on the processing

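The calls of the members held in all 13 alternative fits: 2 higher, 1 lower and BCL2L2 without a call. The log2 fold change ranged over these fits from 0.20 to 0.26 for BCL2L1, 0.18 to 0.22 for MCL1, 0.04 to 0.08 for BCL2L2 and -0.29 to -0.26 for BCL2, whose highest adjusted p was 0.0316, with DESeq2. With the replicate number as a block, 4491 genes were called higher and 4354 lower, and BCL2 had -0.28, BCL2L1 0.23 and MCL1 0.20. Same-numbered libraries deviated together weakly (r 0.0385 to 0.163) and only 2 of 8 libraries correlated best with their own number, so the numbers were not taken as pairs. With each library left out in turn, the differences between pairs of members ranged from -0.55 to -0.46 for BCL2 and BCL2L1, -0.37 to -0.32 for BCL2 and BCL2L2, -0.49 to -0.45 for BCL2 and MCL1, and -0.15 to -0.11 for BCL2L2 and MCL1. Each lost its call in 4 of 8, where the adjusted exact permutation p was 0.0571 or more over 35 assignments. In the pairs with BCL2 it was at most 0.0571. Groups that did not overlap with all libraries stay apart when 1 is left out, and the adjustment ties the p of each pair to the other pairs. The number of BH3-only genes called lower ranged from 0 to 1, of other homologues from 0 to 1 (1 without a filter on low counts), and of transcription factors from 1 to 2. Among single named genes, 577 of 611 alternative values kept their call and none reversed. Depth limits BCL2A1, BCL2L10 and BCL2L14, which were not tested, and also some tested genes. Counting error was 29.5% of the DMSO level for BCL2L15 and for PDGFRB, and 12.1% for BMF. It was 8.74% for DIABLO, 8.46% for PPP1R3E, 7.88% for HRK and 7.32% for BCL2. This list is not complete.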
